A study of Mus musculus with 2 samples.

Results

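Leukocytes hold on to other cells and to matrix through several families of surface receptors besides the integrins, and 8 genes of this kind were followed here. Icam1, Icam2, Vcam1, Pecam1 and Alcam encode receptors with immunoglobulin domains, Selplg encodes PSGL-1, the mucin that binds selectins, Cd44 encodes the main hyaluronan receptor, and Cdh1 encodes E-cadherin. The genes were chosen by name, with earlier results of these data known. Their transcript rows, 14 in all, were taken from both deposited tables and summed per gene symbol. All 8 were found, out of 23444 gene symbols, and all 8 reached at least 1 FPKM in a library, as did 11288 symbols in all. FPKM counts fragments per transcript length and sequencing depth, so levels of different genes can be set side by side per length.

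The RNA came from bone marrow derived macrophages, cells that marrow precursors give rise to in a dish, and the mice were of the inbred strain FVB. The 2 libraries were labelled RON TK-/- (RON deficient, lacking the tyrosine kinase of the receptor RON) and WT (RON proficient), with 1 library each, and are called by these labels below. Cells under both labels were kept in high glucose DMEM with 10% serum, sodium pyruvate and 6 mM glutamine, and both labels name a treatment of 72 hours with recombinant interleukin-4 (10 ng/mL), which drives alternative activation. The labels leave out the age and number of the mice. The comparison asks which transcripts differ between macrophages without and with the RON kinase. No group has a replicate, so no test was run, and every value compares these libraries and not the genotypes.

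Coverage implied about 61915250 reads in genes for the RON TK-/- library and 54165464 for the WT library. Mst1r, which encodes RON, was listed at 0 FPKM in both libraries and so checked neither label, where 3 reads would have given 0.00949 FPKM in the RON TK-/- library and 0.0107 FPKM in the WT library. Marker genes went against the stated treatment of the WT library. The 4 interleukin-4 markers (Arg1, Retnla, Chil3 and Mrc1) summed to 14326 FPKM in the RON TK-/- library and to 72.2 FPKM in the WT library, and Retnla and Chil3 were listed at 0 in the WT library. The 4 markers of classical, inflammatory activation (Nos2, Il1b, Tnf and Cxcl10) summed to 4.58 FPKM in the RON TK-/- library and to 7896 FPKM in the WT library. Genotype, activation state and library cannot be told apart in this design.

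The 10 macrophage markers summed to 7364 FPKM in the RON TK-/- library and 7073 FPKM in the WT library, and all 10 were detected. Of them 6 were within 2-fold (Lyz2, Cd68, Tyrobp, Fcer1g, Csf1r and Emr1, which encodes F4/80) and 4 were at least 2-fold lower in the RON TK-/- library. These were Cd14, with 33.7 FPKM in the RON TK-/- library and 1010 FPKM in the WT library (log2 ratio of FPKM + 1 of -4.86), Fcgr1 (-2.59), Mertk (-1.65) and Spi1 (-1.20). The 4 were 40% of the markers, against 8.71% of all detected genes. At least 2-fold higher were 0 markers, against 25.6% of all detected genes. Relative to the median ratio of all detected genes (0.57) 5 markers were at least 2-fold lower, with Fcer1g at -1.17, against 14.4% of all detected genes. Several of the adhesion receptors are also typical of other cells: Cdh1 of epithelium, Pecam1 and Icam2 of endothelium, and Vcam1, Cd44 and Alcam of marrow stroma. Of 10 epithelial markers 6 were listed at 0 in both libraries, Epcam was at 0 and 0.05 FPKM in the RON TK-/- and WT libraries, and the sum was 3.89 FPKM in the RON TK-/- library and 0.936 FPKM in the WT library, nearly all of it Krt19. Of 11 endothelial markers the defining Cdh5 had 0.18 FPKM in the RON TK-/- library and 0.47 FPKM in the WT library, and Cldn5 was at 0 in both. The endothelial sum of 62.4 FPKM in the RON TK-/- library against 18.0 FPKM in the WT library held Vwf, with 38.6 FPKM in the RON TK-/- library and 4.22 FPKM in the WT library, and Flt1, with 20.8 FPKM in the RON TK-/- library and 0.515 FPKM in the WT library. The other detected endothelial markers lay on the other side, Kdr with 1.72 FPKM in the RON TK-/- library and 6.54 FPKM in the WT library, and Sele listed at 0 in the RON TK-/- library with 4.34 FPKM in the WT library. The part of endothelial markers in the Pecam1 and Icam2 values was not tested. Of 9 stromal markers 7 were detected, all but Lum and Thy1, and the 9 summed to 944 FPKM in the RON TK-/- library and 821 FPKM in the WT library, with Col1a1 at 250 FPKM in the RON TK-/- library and 195 FPKM in the WT library. They lay on both sides: Col3a1 (log2 ratio 1.79) and Pdgfra (1.35) were at least 2-fold higher in the RON TK-/- library and Cxcl12 (-1.69) at least 2-fold lower. The part of stromal markers in the Vcam1, Cd44 and Alcam values was not tested, and in a bulk library fewer cells of a type and less RNA per cell cannot be told apart. Sums over T cell, B cell, neutrophil, dendritic cell and mast cell markers were at most 6.03 FPKM in either library.

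As background, ICAM-1 and VCAM-1 are counter-receptors for leukocyte integrins, and on many cells their genes are switched on by inflammatory cytokines through NF-kB. PSGL-1 lets leukocytes roll on selectins, CD44 binds hyaluronan and osteopontin, PECAM-1 binds itself and carries inhibitory motifs in its tail, and ALCAM binds CD6 or itself. E-cadherin joins epithelial cells through catenins, and in mouse macrophages it is a known marker of the response to interleukin-4.

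Sequence windows from RefSeq (GRCm38.p6, 250 bases before to 50 bases after the gene start) were held for 3 of the 8 genes. These were Icam1, Cd44 and Alcam, and their windows are shown because no others were held. All 3 genes were lower in the RON TK-/- library, by very different amounts. The windows lie at chr9:21015690-21015989 on the plus strand (Icam1), chr2:102901616-102901915 on the minus strand (Cd44) and chr16:52453032-52453331 on the minus strand (Alcam). The gene start of these windows is that of the RefSeq table and not always that of the deposited tables. The deposited start is the same for Cd44 and lies 20 bases further downstream for Icam1. For Alcam it lies 84 bases further downstream, so that the Alcam window lies wholly before the deposited start. Capitals mark matches, on either strand, to 1 short motif, GGAAATTCC (a kB-like site).
Icam1: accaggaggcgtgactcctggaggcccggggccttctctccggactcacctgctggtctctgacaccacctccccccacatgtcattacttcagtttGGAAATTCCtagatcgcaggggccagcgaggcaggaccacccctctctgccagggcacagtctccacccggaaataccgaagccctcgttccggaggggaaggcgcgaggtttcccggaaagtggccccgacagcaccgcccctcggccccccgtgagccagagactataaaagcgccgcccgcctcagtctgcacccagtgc
Cd44: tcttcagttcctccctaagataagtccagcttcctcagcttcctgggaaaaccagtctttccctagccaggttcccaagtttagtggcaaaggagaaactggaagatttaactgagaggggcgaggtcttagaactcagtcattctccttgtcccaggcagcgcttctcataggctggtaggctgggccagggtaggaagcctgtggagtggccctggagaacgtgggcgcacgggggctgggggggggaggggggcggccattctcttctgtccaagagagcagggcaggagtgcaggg
Alcam: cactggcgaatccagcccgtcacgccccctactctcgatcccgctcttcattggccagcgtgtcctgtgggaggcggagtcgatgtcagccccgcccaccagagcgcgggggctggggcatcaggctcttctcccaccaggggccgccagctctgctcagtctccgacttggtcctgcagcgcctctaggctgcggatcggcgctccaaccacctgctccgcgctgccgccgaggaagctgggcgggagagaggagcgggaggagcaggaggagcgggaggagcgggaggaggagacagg

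The Icam1 window held the kB-like motif at bases 98 to 106, and 0.317% of all 32851 RefSeq windows of this length held it. The Cd44 and Alcam windows did not hold these letters. Only these exact letters were searched, and other forms of kB site were not, so the Cd44 and Alcam windows could hold such forms. The share of windows with a match also depends on the letters chosen. Only 1 string was searched, and it occurs in the Icam1 window, so the share does not set Icam1 apart from other genes. A match describes these letters and is not evidence of binding. The part of NF-kB in the Icam1, Cd44 and Alcam values was not tested.

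Icam1 stood furthest apart of the 8 genes on the log2 scale of FPKM + 1 and by difference in FPKM, although the plain ratio of Cdh1, given below, was larger. Icam1 had 16.6 FPKM in the RON TK-/- library and 1274 FPKM in the WT library, where only 28 gene symbols were more abundant. The level was thus 76.9-fold higher in the WT library (95% exact binomial interval 74.1 to 79.8, for counting error only, from about 2847 and 195079 estimated reads in the RON TK-/- and WT libraries). On the log2 scale of FPKM + 1, used for all ratios below, the ratio of the RON TK-/- library over the WT library was -6.18, and 37 of the 11288 detected genes had a lower one. Icam1 spans 21015960 to 21028796 on chromosome 9 (mm10), and its 3′ end overlaps the antisense gene Gm47079 by 490 bases. No label or header says whether strand was used in counting, so reads of the 2 genes cannot be told apart.

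Vcam1 differed in the same direction. It had 6.41 FPKM in the RON TK-/- library and 60.7 FPKM in the WT library, 9.46-fold higher in the WT library (interval 8.96 to 9.99), with a log2 ratio of -3.06. Of the detected genes 1.98% had a lower ratio. Vcam1 (chromosome 3, 116110020 to 116129688) shares 1238 bases at its 5′ end with the antisense gene Gm43109, with the same limit on strand.

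Icam2, a shorter relative of Icam1 that is mostly expressed constitutively, was low in both libraries and lay on the other side. It had 3.39 FPKM in the RON TK-/- library (95% Poisson interval 2.99 to 3.83) and 1.53 FPKM in the WT library (1.25 to 1.88). The log2 ratio of 0.79 was within 2-fold on the scale of FPKM + 1, while the plain ratio of FPKM was 2.21. Icam2 (106377656 to 106382641) and Pecam1 (106654218 to 106715281) lie near each other on chromosome 11.

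Alcam and Cd44 were abundant under both labels. Alcam (chromosome 16, 52248996 to 52452997) had 103 FPKM in the RON TK-/- library and 198 FPKM in the WT library, a log2 ratio of -0.93. Cd44 (chromosome 2, 102811142 to 102901665) had 148 FPKM in the RON TK-/- library and 202 FPKM in the WT library, a log2 ratio of -0.44. Both were within 2-fold, and both lay below the median of all detected genes, which was 0.57.

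Selplg and Pecam1 were higher in the RON TK-/- library. Selplg (chromosome 5, 113817798 to 113830501) had 55.1 FPKM in the RON TK-/- library and 24.4 FPKM in the WT library, 2.26-fold higher (interval 2.17 to 2.34), with a log2 ratio of 1.14. Pecam1 had 2.53 FPKM in the RON TK-/- library (2.33 to 2.75) and 0.527 FPKM in the WT library (0.433 to 0.64), a log2 ratio of 1.21. Pecam1 was the least abundant of the 8 in the RON TK-/- library. The ratios of Selplg and Pecam1 were higher than those of 80.3% and 82.9% of detected genes.

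Cdh1 was at a moderate level in the RON TK-/- library and near absent in the WT library. It had 14.7 FPKM in the RON TK-/- library (14.2 to 15.1) and 0.048 FPKM in the WT library (0.023 to 0.084), from about 4199 and 11 estimated reads. The plain ratio was 308, with a counting interval of 175 to 628 that is wide because of the few reads in the WT library. The log2 ratio on FPKM + 1 was 3.90, higher than that of 99.7% of detected genes. The 10 epithelial markers summed to 3.89 FPKM in the RON TK-/- library and 0.936 FPKM in the WT library. Their part in the Cdh1 value was not tested. Cdh1 spans 106603368 to 106670246 on chromosome 8. Of its listed transcript 2652 bases are coding.

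**Figure D1:**
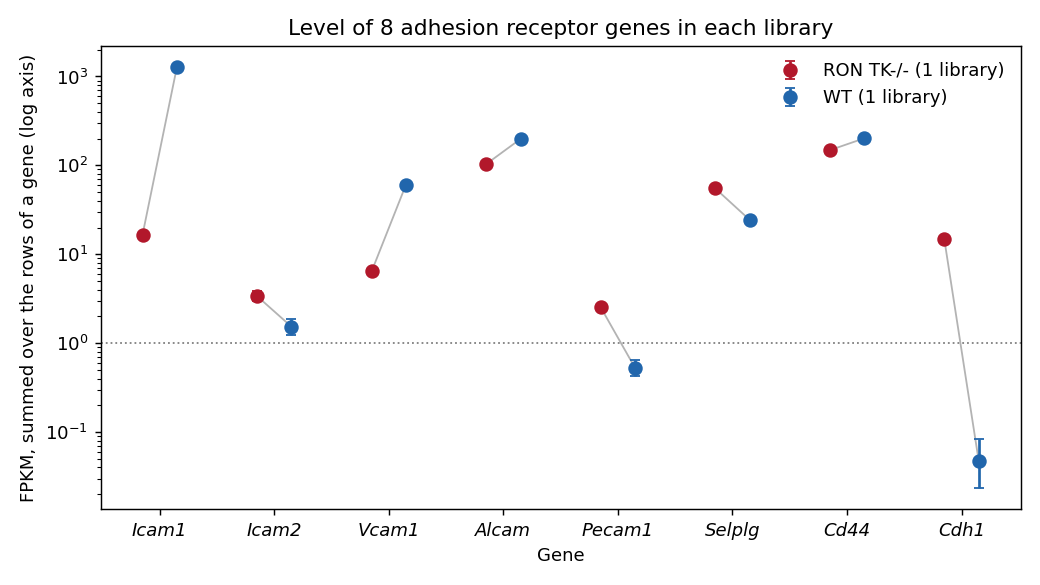
FPKM (log axis) of each receptor gene in the RON TK-/- library (red, left) and the WT library (blue, right). Each point is 1 library, bars are 95% Poisson intervals for counting error only, and the dotted line is 1 FPKM. Icam1 stands at 16.6 and 1274 FPKM and Cdh1 at 14.7 and 0.048 FPKM, in opposite directions.

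In total 3 of the 8 genes were at least 2-fold higher in the RON TK-/- library (Selplg, Pecam1 and Cdh1), against 25.6% of all detected genes, and 2 were at least 2-fold lower (Icam1 and Vcam1), against 8.71% of all detected genes. The remaining 3 were within 2-fold. The median log2 ratio of the 8 was 0.18, below the 0.57 of all detected genes. Relative to that general median, Cdh1 alone was at least 2-fold higher (8.38% of detected genes) and Icam1, Vcam1, Alcam and Cd44 at least 2-fold lower (14.4% of detected genes). On that relative scale Alcam stood at -1.50, Cd44 at -1.01, Icam2 at 0.23, Selplg at 0.58 and Pecam1 at 0.64. The calls of Selplg, Pecam1, Alcam and Cd44 therefore depended on the scaling, while those of Icam1, Vcam1 and Cdh1 held under each scaling tried. Pecam1 was also within 2-fold with a pseudocount of 5 (0.45) and in its most abundant row alone (0.91), and Icam2 passed 2-fold with a pseudocount of 0.1 (1.09).

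**Figure D2:**
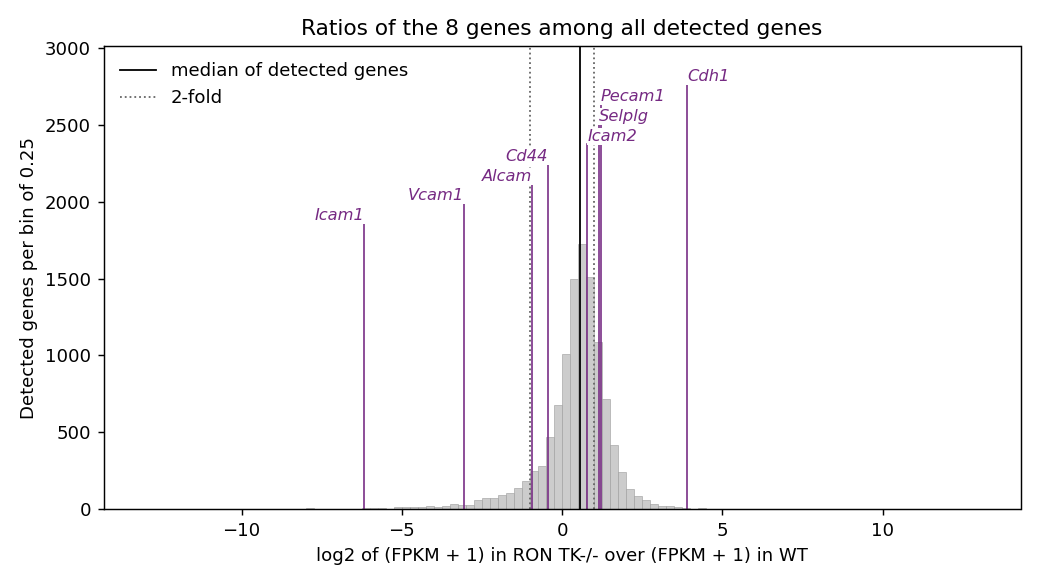
Log2 ratio of FPKM + 1, RON TK-/- over WT, for all 11288 detected genes (grey, number of genes per bin of 0.25) and for the 8 receptor genes (purple lines, whose heights carry no value). Icam1 at -6.18, Vcam1 at -3.06 and Cdh1 at 3.90 lie in the tails, and the other genes lie near the bulk around the median of 0.57 (solid black line).

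The order of the levels differed between the libraries. In the RON TK-/- library Cd44 led, followed by Alcam, Selplg, Icam1, Cdh1, Vcam1, Icam2 and Pecam1, and no counting intervals of neighbours overlapped. In the WT library Icam1 led, followed by Cd44 and Alcam, whose intervals overlapped, then Vcam1, Selplg, Icam2, Pecam1 and Cdh1. Icam1 made up 4.73% of the summed FPKM of the 8 genes in the RON TK-/- library and 72.3% in the WT library. Without Icam1 the sum was 334 FPKM in the RON TK-/- library and 487 FPKM in the WT library.

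Cd44 and Pecam1 were listed with more than 1 transcript, and the others with 1 each. Cd44 transcripts can include variant exons that lengthen the stem between the hyaluronan-binding head and the membrane. The row without any of them, with 9 exons, held most of the gene's FPKM under both labels, at 145 FPKM (97.8%) in the RON TK-/- library and 189 FPKM (94.0%) in the WT library. The 5 rows with 2 to 10 extra internal exons, all coding in GENCODE M21 on the same assembly, together had 3.29 FPKM (2.22%) in the RON TK-/- library and 12.0 FPKM (5.97%) in the WT library. Their summed log2 ratio was -1.60, against -0.38 for the row without variant exons. The difference lay mainly in the rows with 3 or more extra exons. The row with 3 had 8.11e-05 FPKM in the RON TK-/- library and 1.67 FPKM in the WT library, from about 0 and 484 estimated reads. The row with 5 had 0.138 FPKM in the RON TK-/- library and 0.882 FPKM in the WT library. The row with 7 extra exons had 0.286 FPKM in the RON TK-/- library and 4.56 FPKM in the WT library, and the row with 10 had 0.072 FPKM in the RON TK-/- library and 1.02 FPKM in the WT library. The row with 2 extra exons was close, at 2.79 FPKM in the RON TK-/- library and 3.89 FPKM in the WT library.

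Pecam1 has exons for its cytoplasmic tail that are known to be spliced variably. The row lacking a 57-base coding exon had 1.87 FPKM in the RON TK-/- library and 0.527 FPKM in the WT library. The row with that exon had 0.664 FPKM, or 26.2% of the gene, in the RON TK-/- library and 0.000325 FPKM in the WT library, where the whole gene had only about 106 estimated reads. The split of a gene's reads among overlapping rows is an estimate of the authors' program, and these shares carry that uncertainty. The exons on which the rows differ are shown from GENCODE M21 transcripts on GRCm38, both from the minus strand: the 90-base exon present in all 5 longer Cd44 rows (chr2:102832483-102832572) and the 57-base Pecam1 exon (chr11:106671742-106671798).
Cd44 exon: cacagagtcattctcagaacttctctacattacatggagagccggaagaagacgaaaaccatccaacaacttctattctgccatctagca
Pecam1 exon: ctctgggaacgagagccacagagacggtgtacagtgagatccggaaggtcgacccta

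**Figure D3:**
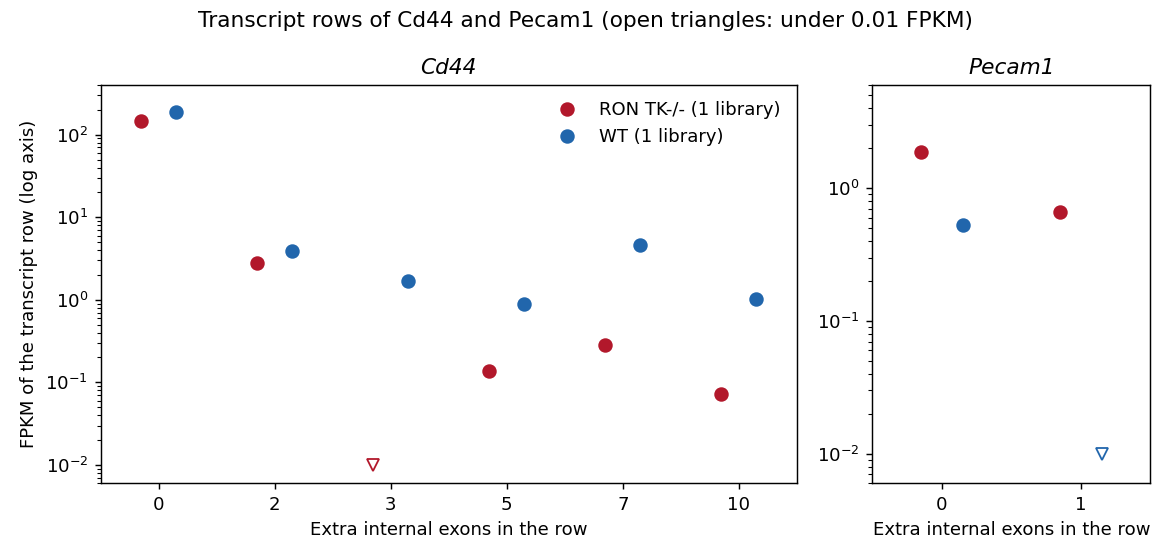
FPKM (log axis) of each listed transcript of Cd44 (left) and Pecam1 (right), ordered by the number of extra internal exons, in the RON TK-/- library (red) and the WT library (blue). Each symbol is 1 library, and open triangles at 0.01 mark rows under that value. The Cd44 row without extra exons is near 145 and 189 FPKM, and the row with 7 is at 0.286 and 4.56 FPKM.

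Partners, enzymes and relatives of the receptors were examined in 7 gene lists, of which 101 genes were detected. The lists were chosen with earlier results of these data known, so their shares are not those of an unselected set. Of these, 20 were at least 2-fold higher in the RON TK-/- library (19.8%, against 25.6% of all detected genes) and 18 at least 2-fold lower (17.8%, against 8.71%). Relative to the general median 9 were higher (8.91%, against 8.38% of all detected genes) and 29 lower (28.7%, against 14.4%). By list these were 3 and 3 for integrin subunits, 1 and 5 for selectins and ligand enzymes and 2 and 4 for hyaluronan genes. They were 0 and 2 for catenins and cadherins and 0 and 4 for tail partners. Sheddases had 0 and 5, and other adhesion molecules 3 and 6. Several genes called higher below are therefore within 2-fold on that scale, and several called within 2-fold are lower.

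Integrin subunits, which include the counter-receptors of ICAM-1 and VCAM-1, lay on both sides by wide margins. Of 10 detected subunits 4 were at least 2-fold higher (Itgax, Itgb3, Itgam and Itgad) and 3 lower (Itga4, Itgal and Itgav), with a median log2 ratio of 0.78. Itgal, the alpha chain of the ICAM-1 and ICAM-2 receptor LFA-1, had 0.604 FPKM in the RON TK-/- library and 29.1 FPKM in the WT library, a log2 ratio of -4.23. Itga4, the alpha chain that binds VCAM-1, had 2.48 FPKM in the RON TK-/- library and 72.6 FPKM in the WT library, a log2 ratio of -4.40. Receptor and counter-receptor genes thus lay on the same side for Icam1 with Itgal and for Vcam1 with Itga4. Icam2 (log2 ratio 0.79) and Itgal lay on opposite sides. Itgam, whose product in Mac-1 also binds ICAM-1, lay on the other side, with 185 FPKM in the RON TK-/- library and 61.0 FPKM in the WT library. The common beta chains were within 2-fold: Itgb2 had 274 FPKM in the RON TK-/- library and 163 FPKM in the WT library, and Itgb1 had 212 FPKM in the RON TK-/- library and 283 FPKM in the WT library. Itgax had 29.5 FPKM in the RON TK-/- library and 2.89 FPKM in the WT library, and Itgb3 had 26.5 FPKM in the RON TK-/- library and 3.93 FPKM in the WT library.

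Selectins and the enzymes that build selectin ligands on PSGL-1 lay on both sides. Of 12 detected genes 2 were at least 2-fold higher (Gcnt1 and Fut7) and 4 lower (Sele, Selp, Tpst1 and St3gal6), with a median of 0.41. Gcnt1, which starts the branched sugar chains that PSGL-1 needs to bind selectins, had 15.2 FPKM in the RON TK-/- library and 2.996 FPKM in the WT library. Fut7, a fucosyltransferase that those ligands also need, was low, at 1.58 FPKM in the RON TK-/- library and 0.251 FPKM in the WT library. Tpst1, a tyrosine sulfotransferase that acts on PSGL-1, had 4.998 FPKM in the RON TK-/- library and 20.6 FPKM in the WT library. Its relative Tpst2 was within 2-fold, with 18.96 FPKM in the RON TK-/- library and 13.6 FPKM in the WT library. The log2 ratio of Tpst2, 0.45, was positive but below the median of all detected genes (0.57). P-selectin (Selp) itself had 2.80 FPKM in the RON TK-/- library and 13.2 FPKM in the WT library, and E-selectin (Sele) was listed at 0 in the RON TK-/- library and had 4.34 FPKM in the WT library.

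For hyaluronan, the ligand of CD44, the list held synthases, enzymes of breakdown and binding proteins. The synthases Has1 and Has2 had 0.12 and 0.59 FPKM in the RON TK-/- library and 14.2 and 16.6 FPKM in the WT library. The hyaluronidases Hyal1 and Hyal2 had 27.1 and 17.7 FPKM in the RON TK-/- library and 5.15 and 3.88 FPKM in the WT library. Tmem2, a cell surface hyaluronidase, had 13.4 FPKM in the RON TK-/- library and 23.9 FPKM in the WT library, and 9930013L23Rik (Cemip), which takes part in hyaluronan breakdown, had 11.3 FPKM in the RON TK-/- library and 13.2 FPKM in the WT library, so that the detected genes of breakdown lay on both sides. Of 12 detected genes in this list 4 were at least 2-fold higher (Hyal1, Hyal2, Hmmr and Layn) and 3 lower (Has1, Has2 and Tnfaip6), and the median was -0.014. Tnfaip6, whose product crosslinks hyaluronan, had 0.23 FPKM in the RON TK-/- library and 4.99 FPKM in the WT library. Spp1 (osteopontin), another CD44 ligand, was abundant and within 2-fold, with 1025 FPKM in the RON TK-/- library and 611 FPKM in the WT library.

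Catenins are the cytoplasmic partners of E-cadherin, and 3 of the 5 listed were abundant in both libraries. Ctnnb1 (beta-catenin) had 340 FPKM in the RON TK-/- library and 157 FPKM in the WT library, a log2 ratio of 1.11. Ctnna1 had 61.9 FPKM in the RON TK-/- library and 57.8 FPKM in the WT library, and Ctnnd1 (p120 catenin) had 38.9 FPKM in the RON TK-/- library and 39.9 FPKM in the WT library. Jup (gamma-catenin) was low, at 2.71 FPKM in the RON TK-/- library and 0.73 FPKM in the WT library, and Ctnna2 was listed at 0 in both. Of 8 detected genes of this list Ctnnb1 and Jup were at least 2-fold higher, and Vcl (vinculin), with 23.1 FPKM in the RON TK-/- library and 64.6 FPKM in the WT library, was lower. The mesenchymal cadherin Cdh11 had 20.1 FPKM in the RON TK-/- library and 41.1 FPKM in the WT library. It was just within 2-fold on the scale of FPKM + 1 (log2 ratio -0.994) but at -1.56 relative to the general median.

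Proteins that tie receptor tails to actin and signalling lay close together. Of 15 detected genes 0 were at least 2-fold higher and 1 was lower, the exchange factor Vav1, with 15.04 FPKM in the RON TK-/- library and 49.5 FPKM in the WT library. Relative to the general median 4 were at least 2-fold lower: Vav1 (-2.22), Rdx (-1.28), Ptpn6 (-1.19) and Rac2 (-1.10). On the scale of FPKM + 1 alone the linkers of ICAM-1, PSGL-1 and CD44 to actin were within 2-fold. Msn (moesin) had 332 FPKM in the RON TK-/- library and 394 FPKM in the WT library, Ezr (ezrin) had 24.5 FPKM in the RON TK-/- library and 31.9 FPKM in the WT library, and Rdx (radixin) had 24.6 FPKM in the RON TK-/- library and 41.2 FPKM in the WT library. Ptpn6, a phosphatase that binds the tail of PECAM-1, had 36.6 FPKM in the RON TK-/- library and 56.8 FPKM in the WT library, and the GTPase gene Rac2 had 92.3 FPKM in the RON TK-/- library and 134 FPKM in the WT library.

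Proteases that release adhesion receptors from the surface, and their cofactors and inhibitors, had 15 detected genes, with 1 at least 2-fold higher and 3 lower and a median of -0.13. Adam17, a sheddase of ICAM-1 and VCAM-1, had 43.4 FPKM in the RON TK-/- library and 66.7 FPKM in the WT library. Its cofactor Rhbdf2 (iRhom2) had 16.9 FPKM in the RON TK-/- library and 81.3 FPKM in the WT library. Adam10, which cuts E-cadherin and CD44, had 54.1 FPKM in the RON TK-/- library and 40.2 FPKM in the WT library. Mmp14, which also cuts CD44, had 25.7 FPKM in the RON TK-/- library and 97.4 FPKM in the WT library, and Mmp9 had 14.2 FPKM in the RON TK-/- library and 58.8 FPKM in the WT library. The higher gene was Adam8, with 667 FPKM in the RON TK-/- library and 252 FPKM in the WT library.

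Among 29 other detected adhesion molecules 7 were at least 2-fold higher and 3 lower (Slamf7, Cd200 and Pvr), with a median of 0.29. Slamf7, a receptor that binds itself on immune cells, had 0.69 FPKM in the RON TK-/- library and 295 FPKM in the WT library, a log2 ratio of -7.46. The ligand Cd200 and its receptor Cd200r1 lay on opposite sides. Cd200 had 1.89 FPKM in the RON TK-/- library and 13.3 FPKM in the WT library, while Cd200r1 had 74.4 FPKM in the RON TK-/- library and 10.1 FPKM in the WT library. Cd200r1 has close relatives among which reads could have been divided, so its value is uncertain. Siglec1, the sialic acid receptor CD169, had 24.0 FPKM in the RON TK-/- library and 5.30 FPKM in the WT library. Cd6, the lymphocyte ligand of ALCAM, was listed at 0 in both libraries.

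**Figure D4:**
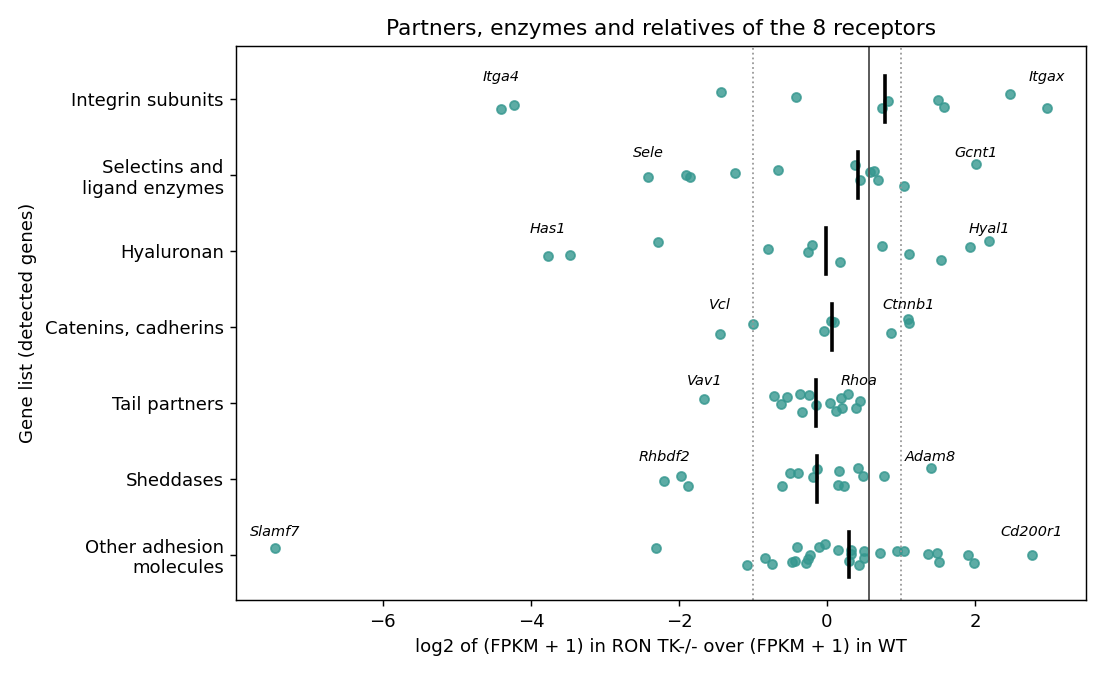
Log2 ratio of FPKM + 1, RON TK-/- over WT, of the detected genes in 7 lists. Each point is 1 gene, black bars are list medians, dotted lines are 2-fold, the solid line is the median of all detected genes (0.57), and the genes with the lowest and highest ratio of each list are named. Slamf7 lies at -7.46, and the tail partners cluster around their median of -0.15.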

How the data were processed

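RNA of 2 libraries, 1 per group, was measured by single reads of 50 bases, and per the labels it was extracted with TRIZOL and prepared with a TruSeq kit. Each deposited table lists RefSeq transcripts with their FPKM and their coverage (mean read depth per base), per the file headers, whose column names are those of Cufflinks. The submitters' processing notes name mm10 and DESeq, with no role. No aligner is named. Loci were read as 0-based and are printed 1-based.

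FPKM was summed per symbol (Python 3.11.15, pandas 2.3.3), and ratios were log2 of (FPKM + 1), which understates differences of low genes. Detected genes had at least 1 FPKM in either library, and 2-fold was counted as apart. Reads were estimated as coverage times length over 50. From them came exact Poisson and binomial intervals (95%, scipy 1.17.1), which cover counting error only. The counting of genes past 2-fold was run on data simulated from the WT library with planted differences and counting error only. That simulation held no variation between libraries and no general shift of ratios, so it does not measure the error of the calls made here.

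The 8 genes and all lists were chosen with earlier results of these data known. The 216 entries of 7 partner and 11 marker lists gave 207 genes after 6 were matched by older symbols, 5 found no match and entries for the same gene were merged. All 8 receptors were named, with up to 4 genes of largest absolute ratio per partner list and detected direct binding partners. Members that complete a count or stand beside a named relative were named after their values were seen, as were markers. No genes of like pattern were named, since 2 libraries give 1 ratio per gene. Alternatives were other pseudocounts, minimums, thresholds and scalings.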

Additional observations from a re-analysis of the deposited data

How the results depend on the processing

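In all 7 recomputations of the single ratios, each of the 8 receptor genes kept its direction, with Icam1 between -6.80 and -5.89, Vcam1 between -3.61 and -2.52 and Cdh1 between 1.96 and 6.64. A change of pseudocount cannot reverse a direction, and the most abundant row is the only row of genes listed with 1 transcript. Only the other settings could have changed a direction, and for Cd44 and Pecam1 also the choice of row. The number of receptors at least 2-fold higher was 3 as reported, 1 after rescaling to a median ratio of 0 and 1 with a 4-fold threshold. The number at least 2-fold lower was 2 as reported and 4 after that rescaling. The median log2 ratio of the receptors, 0.18 as reported, turned to -0.035 with a pseudocount of 5, to -0.39 after median rescaling and to -0.69 with a minimum of 5 FPKM, which leaves 6 of them. It was 0.33 with a pseudocount of 0.1, 0.20 after TPM rescaling, 0.20 with the most abundant row of each gene and 0.20 from estimated reads. Over the partner lists 20 genes were higher and 18 lower as reported, 10 and 29 after median rescaling, and 5 and 9 at 4-fold. Of 154 recomputed counts of single lists 117 stayed within 1.5 times the reported one. No paired analysis was possible because each group has 1 library. Low reads limit Cdh1, Icam2 and Pecam1 in the WT library.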

Other observations

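The genes next to some of the receptors on the chromosomes are given here as values, picked after they were seen. Icam4 and Icam5 directly follow Icam1 on chromosome 9, with 576 bases between Icam1 and Icam4. Icam4 was listed at 0 FPKM in the RON TK-/- library and had 0.453 FPKM in the WT library, and Icam5 had 0.083 FPKM in the RON TK-/- library and 0.405 FPKM in the WT library. On the other side of Icam1, Mrpl4 had 36.8 FPKM in the RON TK-/- library and 28.0 FPKM in the WT library, and S1pr2 had 22.1 FPKM in the RON TK-/- library and 14.98 FPKM in the WT library. Cdh3 (P-cadherin), which lies 46456 bases before Cdh1, had 0.059 FPKM in the RON TK-/- library and was listed at 0 in the WT library, while Tango6, 12821 bases after Cdh1, had 1.41 FPKM in the RON TK-/- library and 0.051 FPKM in the WT library.

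The 4 nearest neighbours of Selplg lay on its side, where its own ratio was 1.14. Most detected genes also lay on that side (median 0.57), and of the 4 only Iscu was below that median. Tmem119 had 8.68 FPKM in the RON TK-/- library and 3.44 FPKM in the WT library, a log2 ratio of 1.12, and the actin regulator Coro1c had 100.2 FPKM in the RON TK-/- library and 47.1 FPKM in the WT library, a log2 ratio of 1.07, while the ratios of Ssh1 and Iscu were 0.71 and 0.18. Cblb, a ubiquitin ligase gene 40949 bases from Alcam, lay on the other side from it, with 93.6 FPKM in the RON TK-/- library and 22.4 FPKM in the WT library. Of the 4 nearest neighbours of Pecam1, 3 were at least 2-fold higher in the RON TK-/- library, as were 25.6% of all detected genes. These 3 lay on the side of Pecam1, Tex2 (log2 ratio 1.63), Ern1 (1.46) and Polg2 (1.05). Milr1, an inhibitory receptor gene, lay on the other, with 35.1 FPKM in the RON TK-/- library and 62.0 FPKM in the WT library.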
